A study of Mus musculus with 32 samples.

Results

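The hypoxia response genes described here were the mouse genes of the Hallmark hypoxia set, taken from the gene set collection deposited with the counts. Of the 201 genes in that set, 12 were left out by rule (Vegfa, Atf3, Ddit3, Ddit4, Ppp1r15a, P4ha1, P4ha2, Lox, Plaur, Tgfb3, Hspa5 and Col5a1). A further 30 were not among the genes counted. This gave 159 member genes of the 17757 in the count table. Of these, 139 had a mean of at least 50 counts per library and 13 had a mean under 10.

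Polysome profiling sorts cytoplasmic mRNA by the number of ribosomes it carries, and here each spheroid pellet gave a polysomal library (more than 3 ribosomes per mRNA) and a sub-polysomal library (fewer than 3). The cells were 4T1, a mouse mammary carcinoma line labelled as triple-negative breast cancer, grown for 5 days as spheroids in lung-like medium. All of them carried a lentiviral short hairpin RNA: a scramble control with 700 µM aspartate (ASP shSCR) or with no added aspartate (NoASP shSCR), and, again with 700 µM aspartate, hairpins that silence Grin2d (ASP shGRIN2D) and Dhps (ASP shDHPS). Grin2d encodes a subunit of the NMDA receptor, a cation channel gated by glutamate, and Dhps encodes deoxyhypusine synthase, which modifies the translation factor eIF5A. With 4 conditions, 2 fractions and 4 pellets per condition there were 32 libraries of 12870563 to 25639437 counts (median 18168765). All 3 comparisons with ASP shSCR share its 4 pellets, and results of these comparisons are not independent of one another.

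Cells sense low oxygen through the hypoxia-inducible factors (HIF). When oxygen is present, prolyl hydroxylases of the Egln family mark HIF alpha subunits, the VHL protein binds them and they are degraded. When oxygen is scarce, the alpha subunit pairs with Arnt and binds short DNA elements with the core ACGTG or GCGTG. Among the genes it turns on are those for glucose uptake and glycolysis, for the diversion of pyruvate from mitochondria (Pdk1), for removal of mitochondria (Bnip3) and for the hydroxylases themselves (Egln3), which closes a feedback loop. The core of a spheroid lies far from the medium, and hypoxia genes are widely used to follow its oxygen supply. The Hallmark set also holds many genes that other signals control, such as immediate early genes and proteoglycans.

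The libraries carried the markers of the labelled line. Epcam lay between 220.2 and 926 CPM (counts scaled to library size with TMM factors) in the 32 libraries, and Krt8 between 550.3 and 3055 CPM. The leukocyte gene Ptprc did not pass 0.879 CPM in any library, Csf1r 0.316 CPM or the endothelial gene Pecam1 0.658 CPM. Tie1, another endothelial gene, lay between 1.17 and 9.95 CPM. In ASP shDHPS against ASP shSCR its level differed by 0.96 ± 0.28 in the sub-polysomal libraries (SE, edgeR adjusted p = 0.0755) and by 1.01 ± 0.44 in the polysomal ones (edgeR adjusted p = 0.266), and without ASP shSCR pellet 1 the polysomal difference was called at 1.85 ± 0.36 (edgeR adjusted p = 0.0195). Pecam1 was at −2.02 ± 0.94 in the sub-polysomal comparison (edgeR adjusted p = 0.284), and the part of other cells in the results was not tested. Thy1, also a fibroblast marker, lay between 89.9 and 216 CPM, and Cd3e, Adgre1, Cdh5 and Pdgfrb were not among the genes counted. The Dhps hairpin was visible in its target, at 8.42 to 13.3 CPM in the 4 ASP shDHPS polysomal libraries against 18.9 to 43.2 CPM in ASP shSCR, and at 8.96 to 10.8 against 33.2 to 43.2 CPM in the sub-polysomal libraries. The sub-polysomal difference was −2.01 ± 0.16 on the log2 scale (SE, edgeR adjusted p = 1.11e-08). Grin2d was a low gene, at 1.87 to 2.89 CPM in ASP shGRIN2D against 3.32 to 6.91 CPM in ASP shSCR sub-polysomal libraries, and its differences of −0.88 ± 0.29 there and −1.14 ± 0.33 in the polysomal libraries (SE) had edgeR adjusted p values of 0.232 and 0.263.

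Before any comparison, 3 pellets need naming. On a scale set from the other libraries, from 0 for a mean sub-polysomal profile to 1 for a mean polysomal one, the polysomal library of ASP shSCR pellet 1 lay at 0.372 over 11046 genes, whereas the remaining polysomal libraries ran from 0.777 to 1.27 and sub-polysomal ones from −0.114 to 0.162. Polysomal pellet 2 was the lowest of its condition on that scale in NoASP shSCR (0.984), ASP shGRIN2D (0.841) and ASP shDHPS (0.910), and the second lowest in ASP shSCR (0.777). Pellet 2 of ASP shSCR and pellet 2 of NoASP shSCR stood apart on a few HIF target genes, members and others, in both fractions. Over the 139 members with at least 50 counts, the median deviation in log2 CPM from the mean of the fraction was highest in pellet 2 of ASP shSCR (0.19 polysomal, 0.20 sub-polysomal). In NoASP shSCR pellet 2 it was 0.10 and 0.09, and 4 knockdown polysomal libraries were above its polysomal value, up to 0.16. The levels that show this are given next, and results that rest on these pellets are given with and without them.

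Bnip3, which encodes a mitophagy receptor and is a HIF target outside the member list, was at 377 CPM in the polysomal library of ASP shSCR pellet 2 and at 30.3, 34.9 and 32.4 CPM in pellets 1, 3 and 4. In NoASP shSCR it was at 199 CPM in pellet 2 and at 31.4, 31.6 and 27.7 CPM in the others. The sub-polysomal libraries gave 144 CPM in ASP shSCR pellet 2 against 31.5 to 44 CPM in its other pellets, and 133 against 32.9 to 56.8 CPM in NoASP shSCR. All 16 knockdown libraries lay between 23.2 and 53.9 CPM, pellets 2 included. Only the pellets numbered 2 of the scramble conditions were thus high for Bnip3, with no overlap with any other library.

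Ankrd37, an ankyrin repeat gene known as a direct HIF target, had the same arrangement, at 55.2 and 22.5 CPM in the polysomal libraries of the 2 scramble pellets 2 against 0.507 to 3.76 CPM in the other 14. In the sub-polysomal libraries it was at 37.3 and 29.1 CPM there and at 2.04 to 7.47 CPM elsewhere. Pdk1, the kinase that inhibits pyruvate dehydrogenase and a member, was at 76.7 and 35.6 CPM in the polysomal libraries of these pellets against 6.9 to 22.9 CPM in the rest, and at 122 and 110 CPM in the sub-polysomal libraries against 22.9 to 39 CPM. Ero1a, a member that encodes an oxidase for disulfide bonds in the endoplasmic reticulum, was at 438 and 229 CPM in the polysomal libraries against 47.4 to 98.8 CPM, and at 250.1 and 232 against 88 to 172 CPM in the sub-polysomal ones. In all of these genes both fractions of both scramble pellets 2 lay above every other library of the same fraction.

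These 4 genes were found by asking how far pellet 2 lay above the mean of the other 3 pellets of its condition and fraction, a question posed after the values had been seen. Of 10909 genes with a mean of at least 50 counts, 8 were at least 2-fold above it in all 4 scramble libraries of pellet 2: Bnip3, Ankrd37, Pdk1, Ero1a, Ccl20, Rab17, Zc3h12a and Nlrp10. The folds of Bnip3 were 3.94 (sub-polysomal) and 11.6 (polysomal) in ASP shSCR, and 3.23 and 6.57 in NoASP shSCR. In ASP shGRIN2D and ASP shDHPS the same fold lay between 0.795 and 1.64 for Bnip3, between 1.17 and 1.3 for Pdk1 and between 0.948 and 1.44 for Ero1a. Ankrd37 was at 1.89 and 1.83 in the polysomal libraries of the knockdown pellets 2 and at 0.806 and 0.694 in the sub-polysomal ones, so in polysomal pellet 2 of both knockdowns all 4 genes were above the mean of the other pellets, by less than 2-fold. The labels do not say whether pellets of the same number were handled together. Over these 10909 genes, the deviations in log2 CPM of the polysomal pellets numbered 2 from their condition means correlated at 0.458 to 0.64 in the 6 pairs of conditions, and those of the sub-polysomal ones at −0.01 to 0.456.

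The bases before the start sites of 4 of the 8 genes are shown, the members (Pdk1 and Ero1a) and the known HIF targets outside the member list (Bnip3 and Ankrd37) among them. As these were chosen for what they are, their letters say nothing of the 8 as a group. They are the 250 bases upstream of the first RefSeq start of each gene on its own strand (GRCm38.p6, whereas the counts were made on GRCm39), and capitals mark ACGTG or GCGTG on either strand, overlapping matches included.
Bnip3 (chr7:138909507-138909756, minus strand): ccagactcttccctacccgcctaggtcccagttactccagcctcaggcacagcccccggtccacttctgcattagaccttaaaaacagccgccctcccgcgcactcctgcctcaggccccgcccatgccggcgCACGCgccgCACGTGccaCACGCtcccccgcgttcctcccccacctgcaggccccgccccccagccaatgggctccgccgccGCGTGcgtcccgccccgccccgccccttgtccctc
Ankrd37 (chr8:45999851-46000100, minus strand): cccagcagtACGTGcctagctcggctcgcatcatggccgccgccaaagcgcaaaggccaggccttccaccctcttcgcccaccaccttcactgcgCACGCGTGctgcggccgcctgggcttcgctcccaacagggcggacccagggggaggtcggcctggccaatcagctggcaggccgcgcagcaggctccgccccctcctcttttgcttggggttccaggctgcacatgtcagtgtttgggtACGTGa
Pdk1 (chr2:71872974-71873223, plus strand): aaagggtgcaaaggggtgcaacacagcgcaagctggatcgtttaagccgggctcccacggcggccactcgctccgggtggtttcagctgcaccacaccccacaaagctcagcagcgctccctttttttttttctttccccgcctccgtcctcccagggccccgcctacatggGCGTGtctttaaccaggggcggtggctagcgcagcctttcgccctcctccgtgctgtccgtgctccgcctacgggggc
Ero1a (chr14:45318573-45318822, minus strand): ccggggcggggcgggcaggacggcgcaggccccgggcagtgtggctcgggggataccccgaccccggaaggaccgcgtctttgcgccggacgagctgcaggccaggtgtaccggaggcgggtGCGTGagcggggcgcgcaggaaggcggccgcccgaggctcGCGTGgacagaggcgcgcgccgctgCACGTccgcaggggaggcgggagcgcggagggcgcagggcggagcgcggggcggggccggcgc
Bnip3 had 5 matches here, of which 2 overlap as CACGTG, the palindrome that other factors also bind. Ankrd37 had 4, Ero1a 3 and Pdk1 1, at 78 bases before its start. Ccl20, Rab17 and Zc3h12a, whose bases are not shown, had 1 match each in the same stretch. In windows from 250 bases before to 50 after a start, 77.5% of the 129 members with an entry held ACGTG or GCGTG on either strand in at least 1 window, against 46.7% of 27025 genes with an entry. CACGTG, counted within these, was in 16.3% of the members and 8.09% of all genes. Members had 1.41 windows per gene and all genes 1.22, base composition was not matched, and a match is a description of letters.

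**Figure D1:**
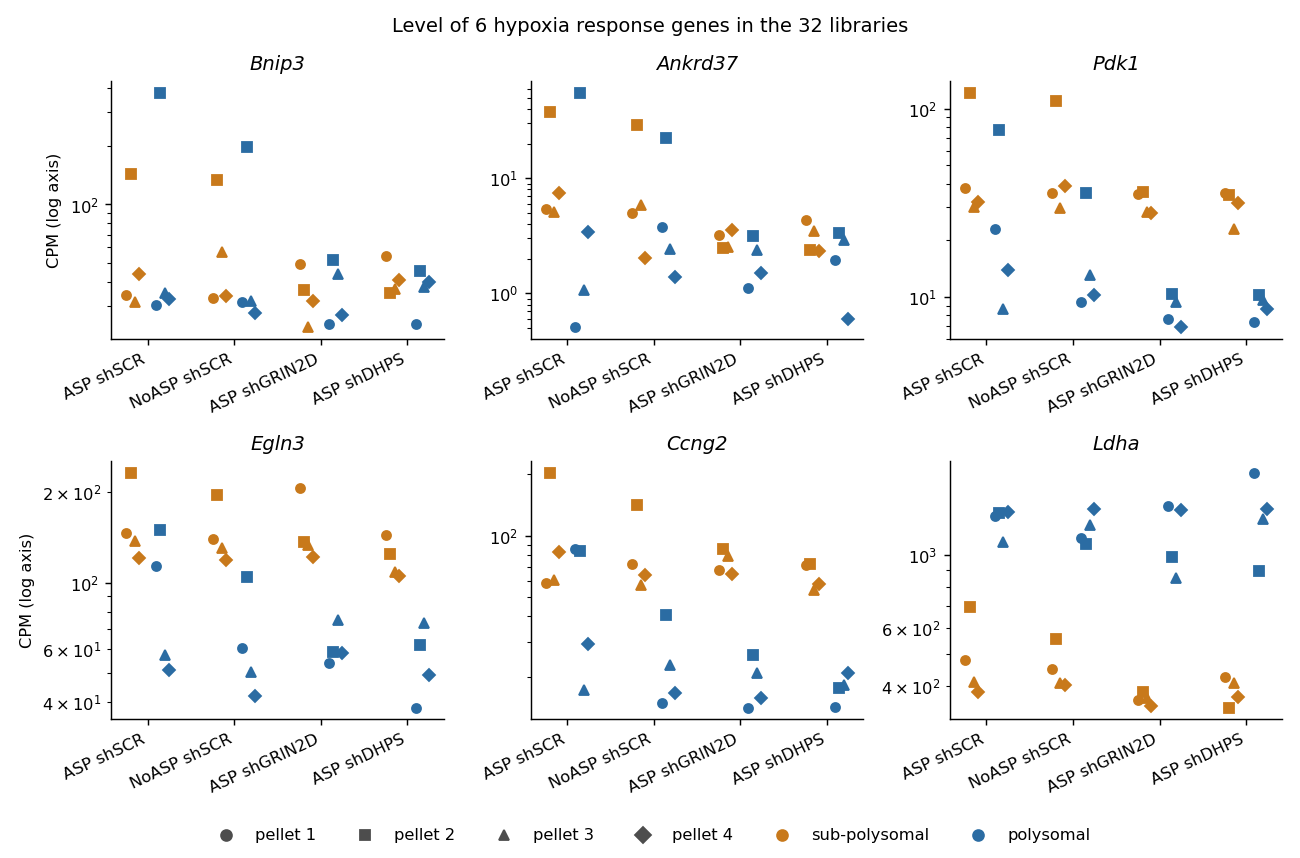
CPM (log axis) of 3 members (Pdk1, Ccng2 and Ldha) and 3 HIF pathway genes outside the member list (Bnip3, Ankrd37 and Egln3) in the 32 libraries, by condition, with 1 point per library, the fraction as colour and the pellet number as marker. The squares of both scramble conditions, pellet 2, stand above the rest for Bnip3, Ankrd37 and Pdk1 in both fractions, and the squares of the knockdown conditions do not.

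The pattern was carried by part of the members. In ASP shSCR, 79 of the 139 members with at least 50 counts (56.8%) had their highest sub-polysomal level in pellet 2, against 28.9% of all 10909 genes, and 57 (41.0%) had their highest polysomal level there, against 26.4%. In NoASP shSCR the counts were 53 (38.1%, all genes 23.9%) and 56 (40.3%, all genes 23.5%). In ASP shGRIN2D pellet 2 was the highest for 20 (14.4%, all genes 26.8%) and 31 (22.3%, all genes 34%) members, in the sub-polysomal and polysomal libraries. In ASP shDHPS it was the highest for 13 (9.35%, all genes 19.9%) and 25 (18.0%, all genes 25.4%). The members thus lay above the share of all genes in the scramble pellets 2 and below it in those of the knockdowns. At least 2-fold above the other pellets were 18 and 17 members in ASP shSCR, 4 and 7 in NoASP shSCR and 0 in each of the 4 knockdown groups. Of all genes, 1.71% and 3.36%, 0.559% and 0.578% did so in the scramble groups, 1.05% and 1.91% in ASP shGRIN2D and 0.119% and 0.413% in ASP shDHPS. At 0.5 of the other pellets or less were 0 and 9 members in ASP shSCR (all genes 2.11% and 7.75%), 2 and 6 in NoASP shSCR (0.587% and 1.92%), 2 and 26 in ASP shGRIN2D (1.12% and 8.52%) and 3 and 8 in ASP shDHPS (0.504% and 1.56%). Polysomal pellet 2 of ASP shGRIN2D thus had the most members that were low.

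Other feedback and cell cycle genes of the HIF response showed it to differing degrees. Ccng2, a cyclin that slows proliferation, was at 203 CPM in the sub-polysomal library of ASP shSCR pellet 2 and at 141 CPM in that of NoASP shSCR pellet 2, against 54 to 85.7 CPM in all others. Its polysomal level was high in ASP shSCR pellet 2 (83.7 CPM) but also in pellet 1 (86 CPM), the library with a profile between the fractions, and was at 17.3 and 29.4 CPM in pellets 3 and 4. Mxi1, a Myc antagonist, was likewise at 93 and 66.1 CPM in polysomal pellets 1 and 2 of ASP shSCR and at 26.5 and 25.7 CPM in pellets 3 and 4. Egln1, the main oxygen-sensing hydroxylase, was at 355 and 211 CPM in the sub-polysomal libraries of the scramble pellets 2 and at 99 to 167 CPM in the others, whereas its polysomal level there was 39.8 and 40.3 CPM against 25.3 to 37.5 CPM in the others apart from ASP shSCR pellet 1, at 175 CPM. For Egln1 the excess in pellet 2 was therefore mostly sub-polysomal, and for Bnip3 it was larger among polysomes.

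Some members ran the other way, though fewer than among all genes. Of the 139, 16 (11.5%) were below the mean of the other pellets in all 4 scramble libraries of pellet 2, against 19% of all 10909 genes. Angptl4, a secreted inhibitor of lipoprotein lipase, was at 0.526 and 0.301 of that mean in ASP shSCR and at 0.513 and 0.311 in NoASP shSCR, in the sub-polysomal and polysomal libraries. Hmox1, the haem-degrading oxygenase, was at 0.942 and 0.456 and at 0.57 and 0.445 of it, and Plin2, which coats lipid droplets, at 0.817 and 0.388 and at 0.712 and 0.381. In the knockdown pellets 2 these genes were low as well, Angptl4 at 0.696 and 0.41 of that mean in ASP shGRIN2D and at 0.904 and 0.598 in ASP shDHPS. Polysomal Hmox1 was at 0.59 and 0.397 of it in the 2 knockdowns and polysomal Plin2 at 0.547 and 0.495. These genes are set members too, so a single average over the set conceals opposite movements in the same pellets. The HIF alpha subunit mRNA was not high there, with Hif1a at 118 and 146 CPM in the polysomal libraries of the 2 pellets and at 86.3 to 209 CPM in the others. Epas1, the second alpha subunit, was at or under 0.822 CPM in every library.

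**Figure D2:**
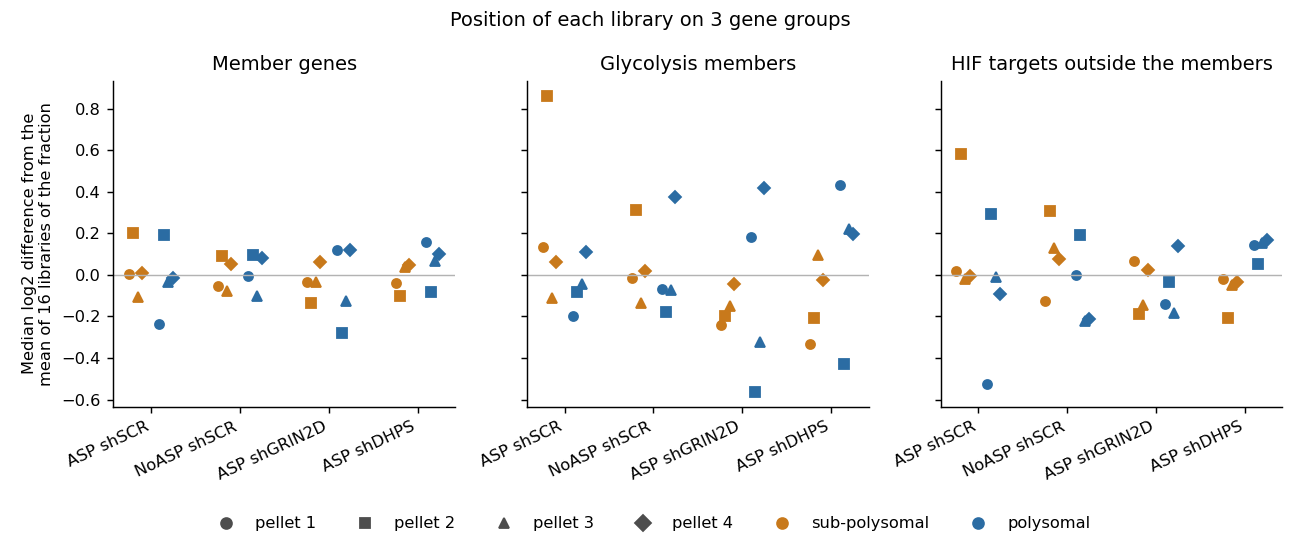
Median log2 difference of each of the 32 libraries from the mean of the 16 libraries of its fraction, over the 139 members, the 17 glycolysis members and the HIF targets outside the members, with the fraction as colour and the pellet number as marker. The sub-polysomal library of ASP shSCR pellet 2 lies 0.861 above the mean on the glycolysis members, and polysomal pellets 2 lie below it in all 4 conditions.

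The glycolysis and glucose uptake members, from the transporter Slc2a1 through Ldha, differed between pellets in a second way. Their median polysomal to sub-polysomal ratio, over 17 genes with at least 50 counts, was 0.36 on the log2 scale in ASP shSCR pellet 2 and 0.84, 1.35 and 1.11 in pellets 1, 3 and 4. Pellet 2 was also the lowest in NoASP shSCR (0.55 against 1.27 to 1.52), in ASP shGRIN2D (0.81 against 1.00 to 1.61) and in ASP shDHPS (0.88 against 1.337 to 2.06). Pellet 2 thus had the lowest glycolysis ratio of its condition in all 4 conditions, knockdowns included. In ASP shSCR, 12 of the 17 had their lowest ratio in pellet 2, against 29.0% of all 10909 genes. The median ratio of all genes was 0.16 in ASP shSCR pellet 2 and 0.03 to 0.20 in its other pellets, 0.16 in NoASP shSCR pellet 2 against 0.15 to 0.19, and 0.13 in ASP shDHPS pellet 2 against 0.04 to 0.07. In ASP shGRIN2D it was lowest in pellet 2, at 0.08 against 0.12 to 0.18.

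Eno1, the enolase, shows both parts of this. Its sub-polysomal level was 1178 CPM in ASP shSCR pellet 2 against 632 to 753 CPM in the other pellets, and its polysomal level 1006 CPM against 1543 to 1869 CPM. Its log2 ratio was accordingly −0.23 in pellet 2 and 1.16, 1.43 and 1.31 in pellets 1, 3 and 4. In ASP shDHPS, Eno1 was at 968 CPM in the polysomal library of pellet 2 against 2005 to 2156 CPM in the others, while the sub-polysomal level of 575 CPM lay within the 472 to 752 CPM of the others. Gapdh, which follows the aldolase step, had a log2 ratio of −1.01 in ASP shSCR pellet 2 and of 1.23, 0.51 and 0.50 in pellets 1, 3 and 4. Among the 17 genes, the highest sub-polysomal level of the condition was in pellet 2 for 16 in ASP shSCR and 10 in NoASP shSCR, but for 2 in ASP shGRIN2D and 0 in ASP shDHPS (all genes 28.9%, 23.9%, 26.8% and 19.9%). The lowest polysomal level was in pellet 2 for 5 in ASP shSCR, 8 in NoASP shSCR, 12 in ASP shGRIN2D and 13 in ASP shDHPS (all genes 27.4%, 30%, 35.6% and 25.7%). The low ratio of pellet 2 thus came mostly with high sub-polysomal levels in ASP shSCR and with low polysomal levels in the knockdowns. Glycolysis genes have many near-identical copies in the mouse genome, and reads shared with them were divided by estimation. Whether the share of cells that expressed these genes differed, or their RNA per cell, cannot be told apart in bulk libraries.

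Within each condition, the ratio of polysomal to sub-polysomal mRNA showed where the members sit on ribosomes. In ASP shSCR, 57 of the 159 members were higher among polysomes and 21 lower (edgeR, adjusted p under 0.05), against 20.8% and 18.9% of all genes tested. The counts were 65 and 30 in NoASP shSCR (background 23.7% and 20.6%), 60 and 26 in ASP shGRIN2D (background 23% and 20.4%) and 64 and 29 in ASP shDHPS (background 21.8% and 21.3%). The median log2 ratio of the members was 0.32, 0.46, 0.40 and 0.39 in these conditions, and that of all genes −0.04, 0, 0 and −0.09. These medians and the shares called are over all genes, low-count ones included. With at least 50 counts, the medians of single pellets were 0.31 to 0.65 over 139 members and 0.03 to 0.20 over 10909 genes. In all 4 conditions 43 members (27%) were higher and 17 (10.7%) lower, against 15% and 14.2% of all genes. With scaling factors computed within each fraction, the median of all genes moved by 0.127 to 0.193, so a ratio is a position relative to other mRNAs and not a share of molecules on ribosomes.

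By role, the glycolysis members were the most polysomal group, with a median log2 ratio of 0.98 in ASP shSCR, 1.26 in NoASP shSCR, 1.38 in ASP shGRIN2D and 1.52 in ASP shDHPS over 17 genes. They made up 10 of the 43 members that were higher in every condition. Ldha, lactate dehydrogenase, had a log2 ratio of 1.41 ± 0.36 in ASP shSCR (SD, n = 4) and Aldoa, the aldolase, 1.09 ± 0.60. Per kilobase of the longest annotated transcript, Gapdh was the most abundant member, with a level of 2169 CPM per kb in ASP shSCR polysomal libraries and 1752 CPM per kb in the sub-polysomal ones. Of the 17, 14 had a mean ratio above 0 in ASP shSCR and 15 in each other condition. Gpi1 and Pdk3 were at −0.02 and −0.01 in ASP shSCR. Pdk1 was the lowest, with ratios of −0.72, −0.66, −1.78 and −1.20 in the 4 ASP shSCR pellets and a place among the 17 members that were lower in every condition.

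Over genes with at least 50 counts, the proteoglycan group (15 genes) had the lowest median log2 ratio of the roles in all 4 conditions. It was −0.37 in ASP shSCR, −0.40 in NoASP shSCR, −0.18 in ASP shGRIN2D and 0.02 in ASP shDHPS. In ASP shDHPS the cell cycle, survival and mitophagy role was close, at 0.03. Over all genes of these roles, low-count ones included, the order turned in ASP shDHPS. The proteoglycan group was at 0.13 there and the cell cycle role at −0.05 with all pellets. Fitted without ASP shSCR pellet 1, they were at 0.10 and −0.08. Sdc3, a syndecan core protein, stood at −1.45 ± 0.50 in ASP shSCR (SD, n = 4). Sdc2, another syndecan, was at 1.60 ± 0.21, so the group did not move as one. Outside that group Ids, the lysosomal iduronate sulphatase, had the lowest ratio of the well-counted members at −1.77 ± 0.19. Its polysomal level was 14.1, 10.7, 9.65 and 12.5 CPM in the 4 ASP shSCR pellets and its sub-polysomal level 41.3, 43.4, 34.5 and 40.9 CPM, with no overlap. Mt2, a metallothionein that binds metal ions, was at −1.43 ± 0.51, and Btg1, an antiproliferative gene, at −1.40 ± 0.33.

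At the other end stood Anxa2, a membrane-binding annexin, with 1761, 1724, 2048 and 2481 CPM in the polysomal libraries of ASP shSCR and 577, 568, 486 and 528 CPM in the sub-polysomal ones. Its log2 ratio of 1.88 ± 0.32 (SD, n = 4) was above those of 99.5% of all 17757 genes, low-count ones included. Pgm2, Plin2, Atp7a and Sdc2 followed. Over the 139 members, transcript length and the ratio had a Spearman rho of −0.058 in ASP shSCR, −0.108 in NoASP shSCR, −0.118 in ASP shGRIN2D and −0.289 in ASP shDHPS, given as descriptions over genes that share the same libraries.

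**Figure D3:**
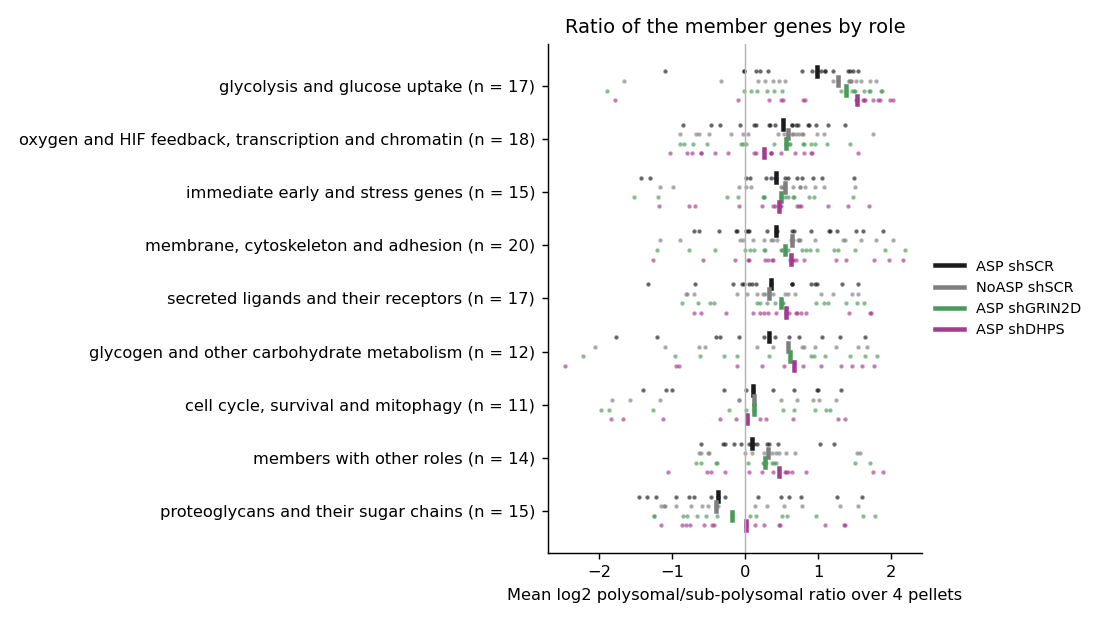
Mean log2 polysomal to sub-polysomal ratio over 4 pellets for each of the 139 members with at least 50 counts (points) and the median of each role (bars), by condition. Glycolysis members lie furthest to the polysomal side in all 4 conditions, and the proteoglycan group lies below 0 in 3 of them.

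The study asked whether the position on polysomes changes when aspartate is absent or when Grin2d or Dhps is silenced. For the hypoxia response genes, no ratio comparison passed the threshold in the main edgeR fit. Other edgeR settings called up to 4 members in ASP shDHPS against ASP shSCR, as given in the last section. Against ASP shSCR, 0 of the 159 members were called in NoASP shSCR (background 0%), 0 in ASP shGRIN2D (background 0%) and 0 in ASP shDHPS (background 0.208%), and between ASP shDHPS and ASP shGRIN2D 0 were called (background 0.00563%). At an unadjusted p under 0.05 there were 4, 8, 24 and 11 members, against 343, 571, 2416 and 1138 of all 17757 genes. Without ASP shSCR pellet 1 there were 1, 2, 23 and 11 members, against 247, 353, 2419 and 1376 genes. In ASP shGRIN2D the members thus went from 5.03% (all genes 3.22%) to 1.26% (all genes 1.99%). DESeq2, the tool the study used, called 0, 0, 13 and 0 members. Its 13 in ASP shDHPS, 6 higher and 7 lower, are not a result of edgeR and stood among 664 genes that DESeq2 called there.

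The members nearest the threshold were regulators of transcription and protein turnover in ASP shDHPS. Nr3c1, the glucocorticoid receptor, had log2 ratios of −0.95, −0.49, −1.16 and −0.57 in the 4 ASP shDHPS pellets and of 0.37, 0.77, −0.01 and 0.24 in ASP shSCR, without overlap. Its difference was −1.14 ± 0.26 (SE, edgeR adjusted p = 0.054, DESeq2 adjusted p = 0.00405). Zfp292, a zinc finger gene, had ratios of −1.24, −1.03, −1.04 and −0.78 against 0.65, −0.14, −0.36 and 0.33, a difference of −1.14 ± 0.27 (edgeR adjusted p = 0.0591). Klhl24, a substrate adaptor of a ubiquitin ligase, stood at −0.15, 0.32, −0.09 and 0.40 against 0.95, 0.91, 0.90 and 1.13 (difference −0.86 ± 0.23, edgeR adjusted p = 0.0847). All 3 also had the lowest unadjusted p of the members against ASP shGRIN2D, with differences of −0.81 to −0.97 and edgeR adjusted p values of 0.303 to 0.444. Both comparisons share the 4 ASP shDHPS pellets, so the second is not separate support. All 3 belong to the oxygen feedback and transcription role, which had a median ratio difference of −0.26 over 19 genes in ASP shDHPS, whereas the glycolysis role had 0.50 and all genes −0.01. Without the scramble pellets numbered 2 the medians of the 2 roles were −0.36 and 0.23. Without ASP shSCR pellet 1 they were −0.17 and 0.44, and that of all genes was 0.03. Without ASP shSCR pellet 1 the differences of Nr3c1, Zfp292 and Klhl24 were −1.09, −0.93 and −0.83.

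In ASP shGRIN2D and NoASP shSCR, the members with the lowest p values included Pdk1 and Ccng2, which were high in ASP shSCR pellets 1 or 2. Pdk1 differed in ratio by −0.82 ± 0.28 in ASP shGRIN2D and by −0.58 ± 0.28 in NoASP shSCR (SE, edgeR adjusted p = 1 in both), and Ccng2 by −0.95 ± 0.36 and −0.80 ± 0.36. Without ASP shSCR pellet 1, the Ccng2 differences were −0.42 and −0.29. Vldlr, a lipoprotein receptor, was at 1.09 ± 0.39 in ASP shGRIN2D, and F3, tissue factor, at −0.76 ± 0.33 in NoASP shSCR. Without ASP shSCR pellet 1 these differences were 0.80 and −0.41.

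Levels in the sub-polysomal fraction gave the members that did pass. In ASP shDHPS against ASP shSCR, 4 of the 159 were called, 3 higher and 1 lower (edgeR, background 1.41%). Ccn1, a matricellular protein, was at 37.9, 41, 46.5 and 51.3 CPM in the ASP shDHPS pellets and at 13.6, 19.4, 20.5 and 19.6 CPM in ASP shSCR, a log2 difference of 1.27 ± 0.23 (SE, edgeR adjusted p = 0.00335). Angptl4 was at 43.3, 40.3, 51.1 and 39.3 CPM against 26, 12.3, 28.7 and 15.3 CPM (1.08 ± 0.23, edgeR adjusted p = 0.0116). The groups did not overlap for either gene. Hmox1 was at 27.1, 26.7, 52.3 and 51.4 CPM against 16.4, 17, 18.6 and 19 CPM, a difference of 1.14 ± 0.26 (edgeR adjusted p = 0.0209), with a narrow ASP shSCR group and pellets 3 and 4 high in ASP shDHPS. Ccn5, another member of the Ccn1 family, ran the other way at 3.19, 1.9, 2.25 and 2.46 CPM against 5.09, 6.61, 4.77 and 5.51 CPM (−1.16 ± 0.27, edgeR adjusted p = 0.0221).

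Of these calls, Ccn1 held without any 1 pellet. The others lost their call without some pellets, while their differences stayed at 0.98 to 1.13 (Hmox1), 0.90 and 1.00 (Angptl4) and −1.16 to −1.06 (Ccn5). Hmox1 had an edgeR adjusted p of 0.0607 without ASP shSCR pellet 1, 0.0614 without ASP shSCR pellet 2, 0.0886 without ASP shDHPS pellet 3 and 0.0904 without ASP shDHPS pellet 4. Angptl4 had 0.0596 without ASP shSCR pellet 2 and 0.0532 without ASP shDHPS pellet 3. Ccn5 had 0.0847 without ASP shSCR pellet 2, and 0.0728, 0.0791 and 0.0725 without ASP shDHPS pellets 2, 3 and 4. The keratins Krt8, Krt18 and Krt14, markers of the line and not members, fell in the same comparison by 0.74, 1.00 and 0.78 on the log2 scale (edgeR adjusted p = 0.049, 0.032 and 0.00461), and their part in these results was not tested. They were the 3 called of 6 epithelial and 4T1 markers, of which 4 were below 0 and 2 above 0. Without the scramble pellets numbered 2 the keratin p values were 0.244, 0.198 and 0.0167. In GRCm38 the genes lie on chromosome 3, 145646976 to 145649981 (Ccn1), chromosome 17, 33773750 to 33781830 (Angptl4), chromosome 8, 75093621 to 75100589 (Hmox1) and chromosome 2, 163820861 to 163833146 (Ccn5), all protein-coding.

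Against ASP shGRIN2D, Ccn5 was the member called in ASP shDHPS (1 of 159, background 0.726%), with 6.79, 8.67, 5.44 and 7.68 CPM in ASP shGRIN2D and a difference of −1.53 ± 0.27 (SE, edgeR adjusted p = 0.00208). Ccn1 differed by 0.75 ± 0.23, Angptl4 by 0.49 ± 0.22 and Hmox1 by 0.52 ± 0.25 there, with edgeR adjusted p values of 0.145, 0.424 and 0.467. With the pellet number as a block in a fit over all 4 conditions, 2 members were called among 291 genes. They were Ccn5 with −1.54 ± 0.26 (edgeR adjusted p = 0.000884) and Ccn1 with 0.81 ± 0.16 (edgeR adjusted p = 0.00314). All 4 same-number pairs of the knockdowns correlated, but not all pairs with the scramble conditions did (NoASP shSCR and ASP shGRIN2D pellets 3 at −0.25). The count was 0 in ASP shGRIN2D against ASP shSCR (background 0.315%) and 0 in NoASP shSCR (background 0%). In those comparisons 37 (23.3%) and 7 (4.4%) members had an unadjusted p under 0.05, against 11% and 4.91% of all genes. Of the 37 in ASP shGRIN2D, 11 were glycolysis members, whose median difference without the scramble pellets numbered 2 is given below. DESeq2 called 5 and 0 members, among 231 genes and 1 gene.

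**Figure D4:**
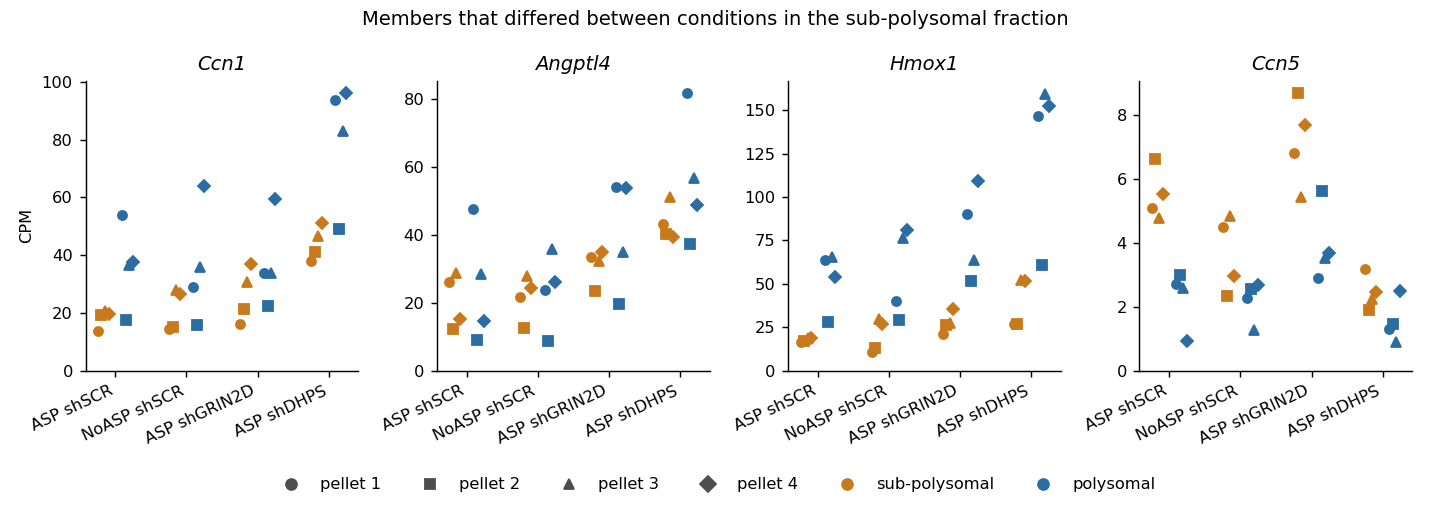
CPM of Ccn1, Angptl4, Hmox1 and Ccn5 in the 32 libraries, by condition, with 1 point per library, the fraction as colour and the pellet number as marker. Sub-polysomal points of ASP shDHPS lie above those of ASP shSCR for the first 3 genes and below them for Ccn5, and polysomal points of pellet 2 lie low for Ccn1, Angptl4 and Hmox1 in every condition.

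None of the 4 called genes was called among polysomes in edgeR. The polysomal differences of Ccn1, Angptl4 and Hmox1 in ASP shDHPS were 1.06 ± 0.40, 1.06 ± 0.48 and 1.23 ± 0.37 (SE), with edgeR adjusted p values of 0.199, 0.28 and 0.124, and Ccn5 differed by −0.66 (edgeR adjusted p = 0.426). DESeq2 called Hmox1 there, with a difference of 1.23 and an adjusted p of 0.0354. Ccn1 was at 93.8, 49.2, 83.1 and 96.2 CPM there against 54.1, 17.4, 36.5 and 37.7 CPM in ASP shSCR, where pellet 2 was the lowest in both conditions. Their ratio differences were −0.07 ± 0.36, 0.22 ± 0.30 and 0.20 ± 0.31, with wider standard errors for the polysomal than the sub-polysomal levels.

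The scramble pellets numbered 2 weighed on the glycolysis members and Bnip3 in the sub-polysomal comparisons. The glycolysis members had median log2 differences of −0.24 in NoASP shSCR, −0.46 in ASP shGRIN2D and −0.41 in ASP shDHPS, with 16, 16 and 18 of 19 genes below 0 and 0 called in edgeR. DESeq2 called Eno1 (−0.66) and Eno3 (−0.50) lower in ASP shGRIN2D and Aldoc (−1.07) lower in ASP shDHPS, with DESeq2 adjusted p of 0.0349, 0.0443 and 0.0259. Without the 2 pellets the medians were −0.02, −0.13 and −0.13. Bnip3 differed by −0.87 ± 0.39 in ASP shGRIN2D and −0.62 ± 0.38 in ASP shDHPS with all pellets, and by −0.05 ± 0.22 and 0.19 ± 0.22 without them. The members with an unadjusted p under 0.05 in ASP shDHPS numbered 47 with all pellets and 32 without these, and those of all genes 2833 and 1841. The called members were then 4 (2.52%, against 0.496% of all genes in that fit), all higher: Ccn1, Angptl4 and Hmox1, with differences of 1.30, 0.90 and 1.13, and Dusp1, a phosphatase of stress kinases, with 1.03 ± 0.24 (SE, edgeR adjusted p = 0.035), which had 0.70 ± 0.24 (edgeR adjusted p = 0.146) with all pellets. Ccn5 was at −1.06 ± 0.26 with an edgeR adjusted p of 0.0625.

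**Figure D5:**
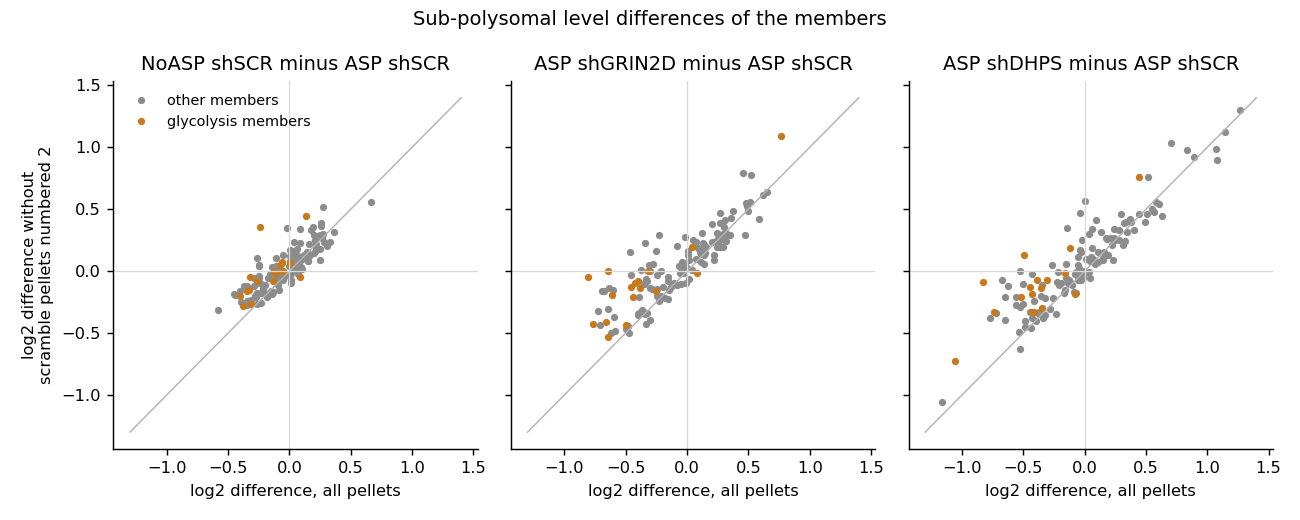
Sub-polysomal log2 level difference from ASP shSCR of each of the 139 members, with all pellets (horizontal axis) and without both scramble pellets numbered 2 (vertical axis), in 3 comparisons, with glycolysis members in colour and the diagonal as a line. Most glycolysis members below 0 on the horizontal axis lie nearer 0 on the vertical axis, with medians of −0.46 and −0.13 in ASP shGRIN2D, while the genes at the upper right in ASP shDHPS stay close to the diagonal.

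In the polysomal fraction, 0 members were called in edgeR in NoASP shSCR (background 0%), ASP shGRIN2D (background 0.0169%) or ASP shDHPS (background 0.169%) against ASP shSCR, or between the knockdowns (background 0.0845%). At an unadjusted p under 0.05 there were 8, 14, 32 and 15 members (5%, 8.8%, 20.1% and 9.4%), against 7.75%, 9.06%, 16.4% and 9.4% of all genes. Without ASP shSCR pellet 1 there were 3, 17, 29 and 24 members (1.89%, 10.7%, 18.2% and 15.1%), against 1.59%, 5.26%, 13.8% and 11.2% of all genes. DESeq2 called 0, 3, 9 and 0 members, among 1, 69, 554 and 204 genes. The widest differences belonged to the genes that were high in ASP shSCR pellets 1 or 2. Pdk1 was at 7.34, 10.3, 9.63 and 8.64 CPM in ASP shDHPS against 22.9, 76.7, 8.64 and 13.9 CPM in ASP shSCR, a difference of −1.82 ± 0.52 (SE, edgeR adjusted p = 0.116) with all pellets and of −0.88 ± 0.31 without the scramble pellets 2. Ccng2 differed by −1.71 ± 0.43 (edgeR adjusted p = 0.099), by −1.47 without these pellets and by −1.28 without ASP shSCR pellet 1. Bnip3 differed by −1.72 ± 0.74 with all pellets and by 0.09 ± 0.26 without them. Ero1a went from −1.33 ± 0.57 to −0.02 ± 0.25.

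Gpc4, Bcl2 and Tnfaip3 were also among the members with the lowest p values in the polysomal fraction. For Bcl2 and Tnfaip3 the difference without those pellets is not given. Gpc4, a glypican, was at 17.2, 9.96, 9.41 and 9.08 CPM in ASP shDHPS and at 4.06, 4.48, 5.83 and 5.33 CPM in ASP shSCR, without overlap, and differed by 1.16 ± 0.25 (SE, edgeR adjusted p = 0.0627), and by 1.10 without the scramble pellets 2. Bcl2, the survival factor, differed by −0.82 ± 0.21 (edgeR adjusted p = 0.099) and had an adjusted p of 0.0473 without ASP shSCR pellet 1. Tnfaip3, which restrains NF-kB signalling, differed by −0.90 ± 0.23 in ASP shGRIN2D (edgeR adjusted p = 0.244).

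Genes of the pathway outside the member list were followed as 2 further lists, 14 genes of the HIF machinery and 13 HIF targets. With all pellets, none of them was called in edgeR in any comparison between conditions, of ratio or level. Without ASP shSCR pellet 1, Ankrd37 was called lower in sub-polysomal ASP shDHPS against ASP shSCR (−2.41 ± 0.57, edgeR adjusted p = 0.0368, against −2.13 and 0.0572 with all pellets). Both values include ASP shSCR pellet 2, where sub-polysomal Ankrd37 was 6.23 times the mean of the other pellets of its condition. The difference without that pellet is not given, so the call may rest on it. Hilpda, a lipid droplet gene, was called higher without ASP shSCR pellet 1 in polysomal ASP shDHPS against ASP shGRIN2D (1.13 ± 0.23, edgeR adjusted p = 0.0433, against 1.13 and 0.0947). Their median sub-polysomal difference in ASP shDHPS was −0.01 for the machinery and −0.30 for the targets, and −0.12 for the targets without the scramble pellets numbered 2. Hif1a lay at 41.9 to 93.9 CPM in the 16 sub-polysomal libraries and 86.3 to 209 CPM in the polysomal ones. Car9, a carbonic anhydrase often used as a hypoxia marker, was at 22.6 to 37.9 CPM in the ASP shSCR polysomal libraries and at 29.9 to 50.03 CPM in those of ASP shDHPS, and pellet 2 was not set apart in it. Vhl, itself a member and the gene of the protein that marks HIF for degradation, was at 40.5 and 23.9 CPM in the polysomal libraries of the scramble pellets 2, against 15.1 to 28.6 CPM in the others.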

How the data were processed

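RNA of the polysomal and sub-polysomal fractions of 16 pellets was sequenced after poly(A)-selected stranded library preparation. Per the labels and the study's methods, the authors trimmed reads with Trim Galore 0.6.6, checked them with FastQC 0.11.9, mapped them to mm39 (GRCm39) with STAR 2.6.1, estimated gene counts with Salmon 1.4.0, rounded them to whole numbers, left out genes with no expression in most replicates, and tested them with DESeq2 1.34.0. The deposited counts of 17757 genes were used as they are. The deposited gene set collection gave the members. Deposited tables of the authors' own comparisons and set scores were not used.

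Counts were fitted with edgeR 4.0.16 (R 4.3.3, quasi-likelihood test, TMM factors, p-values adjusted over all genes with the Benjamini-Hochberg method, threshold 0.05). Ratios were fitted over 32 libraries with a term per pellet, levels over the 16 libraries of a fraction. Log2 values per library used a prior count of 2. The main level fits held no pellet term, so their values are unpaired in every comparison. In 2 comparisons all 4 pairs of pellets with the same number had correlated deviations (over 0.1 across all genes). These were sub-polysomal levels in NoASP shSCR against ASP shSCR and between the knockdowns. For them a fit with the pellet number as a block over all 4 conditions is given beside the main fit. The p-values measure the spread between 4 spheroid pellets per condition, independent ones per the methods. DESeq2 1.42.0 was an alternative, as were other scaling factors, a minimum of 10 counts in every library, other pairings and each pellet left out. Leaving out both scramble pellets numbered 2 was chosen after seeing the data. The steps were tested on simulated data. Members, role lists and markers were chosen with earlier results of these data known. Genes were named by a rule: per comparison and direction, the 6 largest called differences among members averaging 50 or more counts whose groups did not overlap, or otherwise the 3 with the lowest p; per role the 3 highest levels; the 5 highest and 5 lowest ratios in ASP shSCR; and the HIF genes. Ldha, Slc2a1, Vhl, Mxi1, Ero1a, Dusp1, Ccl20, Rab17, Zc3h12a and Nlrp10 were named after their values were seen. Promoters came from RefSeq (GRCm38.p6; 129 of 159 members matched by symbol), gene positions and lengths from GENCODE (GRCm38; all members matched).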

Additional observations from a re-analysis of the deposited data

Results flagged for a closer look

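Within groups of 4 pellets, 33 of 396 sets of values examined (33 genes, 8 groups of libraries and 4 sets of pellet ratios each) had a pellet far from the other 3. Chance alone flags about 1 in 20 such groups, 19.8 here, and the part of pellet handling in any of them was not tested.

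Of the 33, 11 were in ASP shSCR or NoASP shSCR pellet 2. In polysomal libraries, Bnip3 was at 377 CPM in ASP shSCR pellet 2 (others 30.3 to 34.9) and at 199 CPM in NoASP shSCR pellet 2 (27.7 to 31.6), Higd1a at 158 CPM in ASP shSCR pellet 2 (34.6 to 42.9) and Pkm at 1520 CPM there (2950 to 3170). In the sub-polysomal library of ASP shSCR pellet 2, Pdk1 was at 122 CPM (30 to 37.8), Vldlr at 7.61 CPM (2.67 to 3.06), Tnfaip3 at 49.4 CPM (27.1 to 28.9) and Pkm at 2220 CPM (1290 to 1390). The log2 ratio in ASP shSCR pellet 2 was −0.227 for Eno1 (1.16 to 1.43) and −0.545 for Pkm (1.08 to 1.21), and that of Sdc3 in NoASP shSCR pellet 2 was −0.696 (−1.25 to −1.22).

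ASP shSCR pellet 1 gave 25.1 CPM for polysomal F3 (others 7.69 to 8.59), 5.36 CPM for polysomal Kdm4c (13.0 to 14.6), 13.6 CPM for sub-polysomal Ccn1 (19.4 to 20.5), and log2 ratios of −1.06 for Vldlr (0.276 to 0.394) and −0.935 for Mxd4 (−2.80 to −2.61). Pellets 3 and 4 of ASP shSCR gave polysomal Tnfaip3 at 41.6 CPM in pellet 3 (57.6 to 61.5), polysomal Ccn5 at 0.921 CPM in pellet 4 (2.6 to 3) and a Ccn5 log2 ratio of −2.45 in pellet 4 (−1.11 to −0.85). NoASP shSCR gave polysomal Zfp292 at 10.3 CPM in pellet 1 (16.4 to 17.4), sub-polysomal Klf7 at 14.7 CPM in pellet 4 (9.42 to 9.99), sub-polysomal Mxd4 at 66.3 CPM in pellet 3 (102 to 109) and an Mxd4 log2 ratio of −2.14 in pellet 3 (−2.63 to −2.59).

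In ASP shGRIN2D, pellet 1 had sub-polysomal Tpst2 at 169 CPM (126 to 132), polysomal Bcl2 at 17.4 CPM (13.8 to 14.2) and a Tnfaip3 log2 ratio of 0.807 (0.0534 to 0.112). In ASP shDHPS, polysomal pellet 2 was low for Eno1 at 968 CPM (2000 to 2160), Hmox1 at 60.7 CPM (147 to 159) and Vldlr at 3.13 CPM (6.33 to 6.75). Polysomal Gpc4 was at 17.2 CPM in pellet 1 (9.08 to 9.96), polysomal Klhl24 at 30.2 CPM in pellet 4 (20.9 to 21.8), sub-polysomal Mxd4 at 70.5 CPM in pellet 3 (91.7 to 95.4), and the log2 ratio of Xpnpep1 at 1.06 in pellet 1 (0.407 to 0.443).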

How the results depend on the processing

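The differences of members named by the rule kept their direction under every alternative run. Outside the member list, Bnip3 turned without the scramble pellets 2, from −0.62 to 0.19 in sub-polysomal and from −1.72 to 0.09 in polysomal levels of ASP shDHPS, and the counts within conditions stayed within 1.5 times of the reported ones. Counts of members called between conditions moved as follows, and the cause was not tested. Counts of all genes moved as well, and where none stands beside a count, the members are not set against all genes. For the ratio in ASP shDHPS against ASP shSCR, 0 members became 4 with at least 10 counts in every library (fewer genes tested), 3 with TMM within each fraction, 13 with DESeq2 and 0 to 2 with 1 pellet left out (2 without ASP shGRIN2D pellet 1, 1 without ASP shGRIN2D pellet 4 or ASP shDHPS pellet 2). Of all genes, 37 were called in the main fit and 664 with DESeq2. For sub-polysomal levels in the same comparison, 4 became 7 with that filter and 14 with DESeq2. The main fit called 1.41% of all 17757 genes there, and DESeq2 called 652 genes, so calls rose among all genes too. With 1 pellet left out, 1 to 10 members were called. The count was 2 without ASP shSCR pellet 2 and 10 without ASP shSCR pellet 3. Without ASP shDHPS pellets 3 and 4 it was 1 and 2. In ASP shGRIN2D 0 became 5 with DESeq2 (all genes 56 and 231), and between the knockdowns 1 became 2 (all genes 129 and 270). For polysomal levels in ASP shDHPS, 0 became 1 with the filter, 9 with DESeq2 and 0 to 3 with 1 pellet left out (1 without ASP shSCR pellet 1, 3 without ASP shSCR pellet 3). The main fit called 30 of all 17757 genes there and DESeq2 554. Without ASP shSCR pellet 1 the 1 member of 159 stood among 131 of all 17757 genes. In ASP shGRIN2D, 0 became 3 with DESeq2 (all genes 3 and 69) and 0 to 2 with 1 pellet left out (2 without ASP shSCR pellet 3).

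The replicate numbers were checked as a pairing across conditions. Deviations of pellets with the same number had a median correlation of 0.274 in the polysomal and 0.206 in the sub-polysomal libraries, those with different numbers −0.087 and −0.081, and 16 and 19 of 24 same-number pairs exceeded 0.1. By comparison, all 4 pairs did so for sub-polysomal levels of NoASP shSCR against ASP shSCR (0.247 to 0.456) and between the knockdowns (0.197 to 0.417). The main fits were unpaired there too, and the block counts stand beside them. In the other comparisons at least 1 pair did not, and the block shows only what a shared number does. With the number as a replicate block over all 4 conditions, the sub-polysomal counts were 0 in NoASP shSCR, 20 in ASP shDHPS (12.6%, all genes 4.27%) and 2 in ASP shGRIN2D (1.26%, all genes 1.1%) against ASP shSCR and 2 between the knockdowns (1.26%, all genes 1.64%), and the polysomal counts 7 in ASP shDHPS (4.4%, all genes 2.28%) and 1 between the knockdowns (0.629%, all genes 0.58%). In the ratio fit, leaving out the pellet term (no replicate block) kept 0 calls in all 4 comparisons. Within the 4 conditions that fit gave 54 and 17, 61 and 26, 58 and 24, and 59 and 27 members higher and lower. The shares of all genes called in that fit are not given, so these counts are not set against all genes.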
